A study of Homo sapiens with 26 samples.

Results

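The genes described here are 41 genes of autophagy and the lysosome, chosen by name and followed through 6 comparisons in 26 RNA-seq libraries of esophageal squamous cell carcinoma (ESCC) cell lines. Of the 41 genes, 39 had a mean normalised read count of 10 or more in each of the 5 tables of 26485 genes and are called members below. ULK2, a second starter kinase, was at 0 to 0.88 in TE6 except for 18.3 in the siBRDT replicate 1 library and at most 2.83 in KYSE150. CTSL was at most 2.81 in KYSE150. So neither gene entered any count of members, though both stayed among the 41 in the promoter search and the ranking of levels. Both were measured in KYSE180 and neither passed there. In KYSE180 and TE6, which express BRDT, siCont libraries (a control siRNA) were compared with libraries given siRNA against BRDT (siBRDT) or TP63 (siTP63). The KYSE180 siBRDT experiment had 3 libraries per group, and the KYSE180 siTP63 experiment had its own siCont group and 2 libraries per group. The TE6 experiment had 2 libraries each of siCont, siBRDT and siTP63, so its siCont pair served both knock-downs. In KYSE150, where BRDT lay between 0 and 60.9 in libraries without the plasmid, 2 siTP63 libraries were compared with 2 siCont libraries, and 3 libraries with a BRDT plasmid (BRDT-OE) with 3 control libraries. Each cell line is 1 model, and nothing in the labels says that replicates came from separate cultures, so p-values measure only the spread between these libraries.

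Autophagy delivers cytoplasmic material to the lysosome. A starter kinase complex and a lipid kinase complex begin a membrane, ubiquitin-like ATG8 proteins are joined to it by a conjugation machinery, receptors load the cargo, and the closed vesicle fuses with a lysosome whose hydrolases work in an acid lumen kept by the V-ATPase proton pump. TFEB and TFE3 are transcription factors that activate many of these genes through CACGTG-type sites in their promoters. BET proteins, the family of BRDT, bind acetylated chromatin and are known as repressors of this gene program. p63, the product of TP63, is the master regulator of squamous identity.

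The promoter sequences are shown because the CACGTG core is the feature through which TFEB and TFE3 are known to act on this program. Among the promoters listed by RefSeq (GRCh38.p14, 250 bases before to 50 after the start site), 36 of the 41 genes had an entry, and 9 of these (25%) held CACGTG, which reads the same on both strands. Of all 27305 genes with a promoter entry, 8.77% held it. The longer form GTCACGTG, searched on both strands and overlapping the core, was in 22.2% of the 36 genes and in 2.93% of the 27305. The 9 genes were ATG3, ATG14, LAMP1, MCOLN1, CTSA, CTSD, GAA, NEU1 and ATP6V0D1. Windows of 100 bases from 6 of them follow, 5′ to 3′ on the gene's own strand, with the CACGTG core in capitals and every base upstream of the start site.
LAMP1 (chr13:113297039-113297138, plus strand): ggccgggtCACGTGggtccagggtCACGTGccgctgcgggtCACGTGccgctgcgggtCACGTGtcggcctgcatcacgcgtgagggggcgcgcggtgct
MCOLN1 (chr19:7522524-7522623, plus strand): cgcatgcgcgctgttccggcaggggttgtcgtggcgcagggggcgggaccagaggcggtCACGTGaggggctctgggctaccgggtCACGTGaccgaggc
CTSA (chr20:45891235-45891334, plus strand): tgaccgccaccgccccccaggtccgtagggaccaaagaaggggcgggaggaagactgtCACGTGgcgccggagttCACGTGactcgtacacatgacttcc
GAA (chr17:80101481-80101580, plus strand): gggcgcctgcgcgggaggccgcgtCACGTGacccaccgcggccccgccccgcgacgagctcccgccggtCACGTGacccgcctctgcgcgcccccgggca
NEU1 (chr6:31862872-31862971, minus strand): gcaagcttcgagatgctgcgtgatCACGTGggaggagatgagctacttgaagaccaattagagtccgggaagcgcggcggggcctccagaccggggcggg
ATP6V0D1 (chr16:67481158-67481257, minus strand): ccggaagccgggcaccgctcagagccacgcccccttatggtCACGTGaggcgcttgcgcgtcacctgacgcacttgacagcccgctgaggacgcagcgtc

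The targeted genes moved as labelled in every comparison, though the lower TP63 level in KYSE150 siTP63 did not pass. BRDT fell in KYSE180 siBRDT (log2 fold change -2.75) and TE6 siBRDT (-2.23) and rose in BRDT-OE (10.60), and TP63 fell in KYSE180 siTP63 (-1.70) and TE6 siTP63 (-4.45). TP63 also fell in KYSE180 siBRDT (-0.58) and TE6 siBRDT (-1.15). The 6 squamous markers were KRT5, KRT14, KRT6A, DSG3, SOX2 and TP63, the siTP63 target itself. Of these, 5 fell in KYSE180 siBRDT, TE6 siBRDT and KYSE180 siTP63 and 6 in TE6 siTP63. In BRDT-OE 2 of the 5 tested rose and 1 fell. Of 3 endothelial markers the 1 tested rose in KYSE180 siTP63 and TE6 siTP63, and none was called elsewhere. The shares of all genes follow below. The part of the squamous markers in the changes below was not tested. SOX2, one of them, was under 10 in every KYSE150 library. PTPRC and CD3E, markers of leukocytes, were under 10 in every library. Libraries held 7582089 to 19372441 reads. The TE6 siBRDT replicate 1 library stood apart: 2674 genes had reads in it and in no other TE6 library. The other TE6 libraries held 68 to 199 such genes. Member calls of TE6 siBRDT lost without the library that stood apart are named beside the results. Calls of the wider list below were not followed without it. The KYSE180 siBRDT replicate 1 library held 1052 such genes, against 148 to 233 in the other libraries of its table, and without it 3 members rose and 7 fell, with no call lost and GABARAPL2 as the added fall.

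The members did not move as a block in any comparison. In the text, a gene rose or fell when its limma adjusted p was under 0.05 and its log2 fold change was 0.5 or more in size, on the log2(normalised read count + 1) scale. In KYSE180 siBRDT 3 members rose and 6 fell, where 14.5% of all tested genes rose and 15.8% fell. In TE6 siBRDT 6 rose and 6 fell, beside 15.6% and 18.1% of all genes. In KYSE180 siTP63 8 rose and 5 fell, beside 23.6% and 25.7%. In TE6 siTP63 12 rose and 3 fell, beside 18.3% and 20.6%. In KYSE150 siTP63 0 rose and 0 fell, and 0% of all genes passed in either direction. In BRDT-OE 2 rose and 9 fell, beside 10.5% and 16.0%. In most comparisons the members' shares lay near or below the share of all genes, and the shares that stood above it were those that rose in TE6 siTP63 and those that fell in BRDT-OE. The TE6 siBRDT counts were 5 up and 4 down without the library that stood apart, 5 and 7 without siBRDT replicate 2, 6 and 5 without siCont replicate 1, and 3 and 4 without siCont replicate 2, where WIPI1, ATG4B, ATG12, LAMP2 and GAA no longer passed. Across the comparisons 30 of the 39 members passed at least once, 11 only upward, 12 only downward and 7 in both directions in different comparisons.

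**Figure D1:**
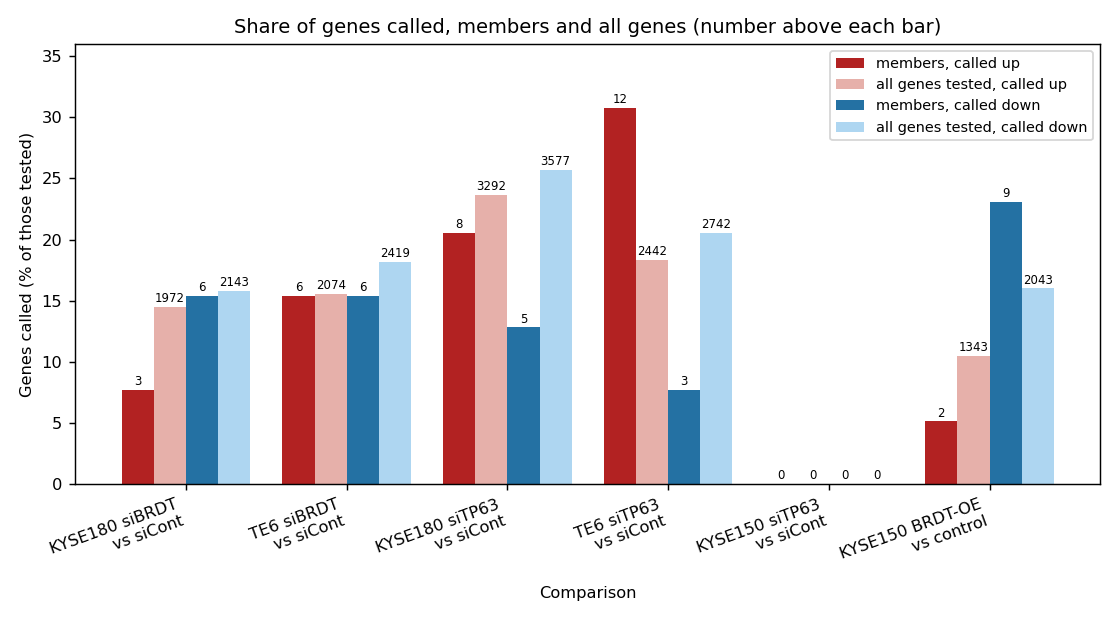
Share of genes called up (red) or down (blue), as a percentage of the genes tested (y axis), for the 39 members (dark bars) and for all genes tested (pale bars) in each comparison (x axis), with the number of genes above each bar. The member bars that stand above their pale neighbours are the 12 called up in TE6 siTP63 and the 9 called down in BRDT-OE, and no gene was called in KYSE150 siTP63.

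The median log2 fold change of the members was -0.11 in KYSE180 siBRDT, 0.11 in TE6 siBRDT, 0.11 in KYSE180 siTP63, 0.26 in TE6 siTP63, 0.24 in KYSE150 siTP63 and -0.12 in BRDT-OE, while the median of all tested genes lay between -0.04 and 0.02 in all of them. In TE6 siTP63 and in KYSE150 siTP63 27 of 39 members lay above 0, and in BRDT-OE 27 of 39 lay below 0. Above 0 were also 16 in KYSE180 siBRDT, 20 in TE6 siBRDT and 23 in KYSE180 siTP63. Of all genes tested, 48.5% to 52.6% lay below 0 in each comparison. Rescaling the libraries to equal upper quartiles moved the median of all genes in KYSE180 siTP63 by 0.19, after which 13 members rose and 3 fell and, of all genes, 4524 rose and 2631 fell in place of 3292 and 3577. In BRDT-OE the same step moved the median of all genes by -0.10, after which 2 members rose and 11 fell and, of all genes, 889 rose and 2529 fell in place of 1343 and 2043. With each library's trend over transcript length and GC content removed (below, the length and GC trend), 2 members rose and 6 fell there, and of all genes 1615 rose and 1562 fell.

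**Figure D2:**
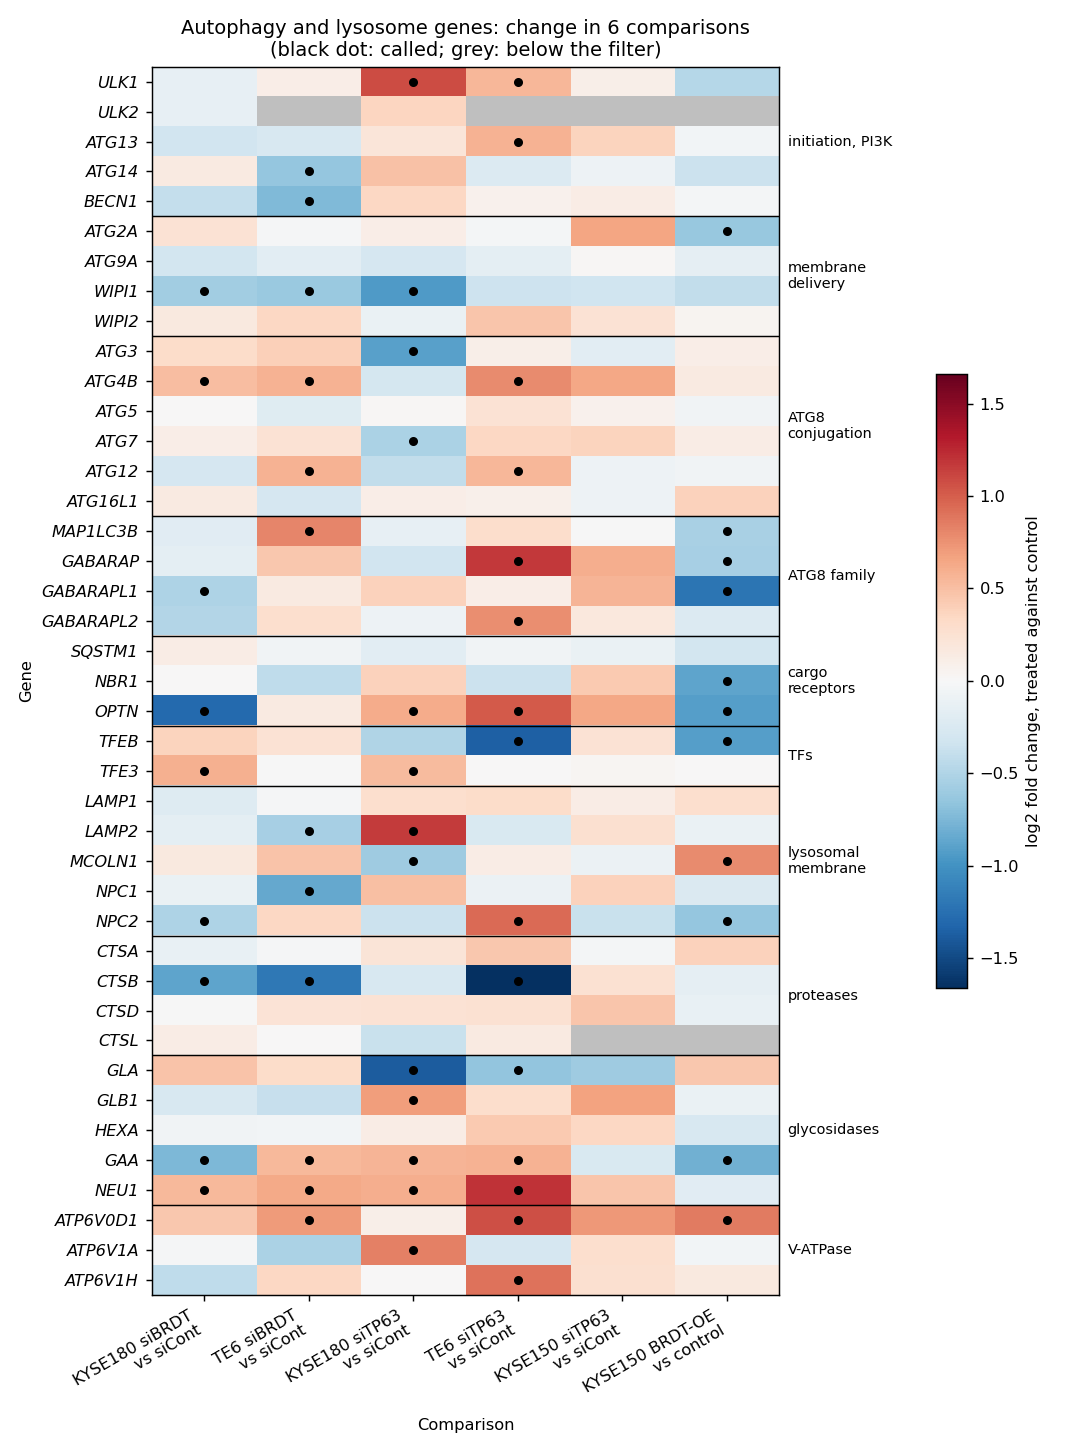
Log2 fold change (colour, red higher and blue lower in the treated libraries) of the 41 listed genes (rows, grouped by role) in the 6 comparisons (columns), with a black dot where the gene was called and grey where its mean was below 10. NEU1 has red cells with dots in 4 comparisons, CTSB has dark blue cells in both siBRDT comparisons and in TE6 siTP63, and OPTN and GAA change colour between comparisons.

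Among the starter complexes, ULK1, the kinase that begins autophagy, rose after TP63 knock-down in KYSE180 and TE6. In KYSE180 its normalised read counts were 444 and 398 in siCont and 927 and 865 in siTP63 (log2 fold change 1.09, SE 0.15, adjusted p = 6.14e-07). In TE6 they were 308 and 271 against 413 and 432 (0.55, SE 0.13, adjusted p = 0.0039), so the treated libraries lay above the controls in both lines. The TE6 call was lost with the length and GC trend removed and without siCont replicate 2 or siTP63 replicate 2. ATG13, the regulatory partner of ULK1, rose in TE6 siTP63 from 722 and 714 to 1078 and 1074 (0.58, adjusted p = 7.53e-04). BECN1 and ATG14, subunits of the lipid kinase complex, fell in TE6 siBRDT. BECN1 went from 990 and 915 to 451 and 724 (-0.73, adjusted p = 0.00398), and without the library that stood apart its change was -0.39, short of the fold limit. ATG14 went from 460 and 498 to 306 and 307 (-0.64, adjusted p = 0.00118). With the length and GC trend removed the changes were -0.48 for BECN1 and -0.37 for ATG14, and neither passed the fold limit. The BECN1 call was also lost without siCont replicate 1. Exons of ATG13, ATG14 and BECN1 overlap genes on the other strand. So do those of WIPI1, ATG3, ATG7, ATG12, MAP1LC3B, SQSTM1, OPTN, NPC2, CTSA, GLA and HEXA. The counting of strand is not given in the sources used here, so reads of all these genes could be shared. Exons of MCOLN1, NPC2 and GLB1 overlap other genes on the same strand.

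Among the genes that supply and shape the membrane, WIPI1, which reads the lipid signal on it, fell in 3 comparisons. Its counts were 441, 417 and 444 in KYSE180 siCont and 307, 276 and 293 in siBRDT (-0.57, SE 0.08, adjusted p = 2.82e-05). In TE6 siBRDT they were 275 and 333 against 435 and 498 (-0.62, adjusted p = 0.003), a call lost without the library that stood apart or siCont replicate 2. In KYSE180 siTP63 they were 298 and 286 against 514 and 616 (-0.94, adjusted p = 1.13e-05). ATG2A, the lipid transfer protein, fell in BRDT-OE from 1016, 943 and 777 to 600, 569 and 586 (-0.63, adjusted p = 5.18e-04), a call lost with the length and GC trend removed. ATG9A, the scramblase of the seed vesicles, and WIPI2, which recruits the conjugation machinery, passed in none of the comparisons.

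In the conjugation machinery, ATG4B, the protease that primes and recycles ATG8 proteins, rose in 3 comparisons. It went from 736, 733 and 689 to 1013, 1027 and 1028 in KYSE180 siBRDT (0.51, SE 0.07, adjusted p = 1.06e-05) and from 653 and 581 to 942 and 897 in TE6 siBRDT (0.58, adjusted p = 0.00104). It reached 1072 and 1049 in TE6 siTP63 (0.78, adjusted p = 8.91e-05), so no treated library overlapped a control. The siBRDT calls were lost in both lines with the length and GC trend removed, and without siCont replicate 3 in KYSE180 or siCont replicate 2 in TE6. In KYSE180 siTP63 it lay the other way without passing, with 1519 and 1316 against 1843 and 1614 in siCont (-0.29, adjusted p = 0.0865). ATG12, the ubiquitin-like partner of ATG5, rose in TE6 siBRDT (0.58, adjusted p = 0.00595) and TE6 siTP63 (0.55, adjusted p = 0.00712). Without the library that stood apart its siBRDT change was 0.44, short of the fold limit. That call was also lost without siCont replicate 2. The siTP63 call was lost without siCont replicate 2 or either siTP63 library. ATG3 and ATG7, the enzymes that pass ATG8 proteins on, fell in KYSE180 siTP63. ATG3 went from 1387 and 1260 to 721 and 698 (-0.90, SE 0.14, adjusted p = 6.19e-06), and ATG7 from 505 and 493 to 328 and 362 (-0.53, adjusted p = 0.00396), a call lost after rescaling, with edgeR and without siTP63 replicate 1. ATG5 and ATG16L1, which together place the ATG8 proteins on the membrane, passed in none.

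Of the 4 genes of the ATG8 family, 2 rose in TE6 siTP63, where 18.3% of all genes rose, and 3 fell in BRDT-OE, where 16.0% fell. GABARAP rose in TE6 siTP63 from 1851 and 1858 to 4447 and 3933 (1.17, SE 0.10, adjusted p = 1.37e-06) and GABARAPL2 from 526 and 454 to 839 and 824 (0.77, adjusted p = 1.99e-04). In BRDT-OE GABARAPL1 went from 1759, 1472 and 1698 to 678, 738 and 703 (-1.21, SE 0.08, adjusted p = 4.84e-06), the largest fall of any member there. GABARAP went from 3131, 2635 and 3756 to 2124, 2165 and 2126 (-0.55, adjusted p = 0.00194), and MAP1LC3B, which encodes LC3B, from 883, 925 and 941 to 577, 655 and 658 (-0.54, adjusted p = 3.44e-04). The calls of GABARAP and MAP1LC3B there were lost with the length and GC trend removed, that of GABARAP also without control replicate 3 and that of MAP1LC3B also without BRDT-OE replicate 1. MAP1LC3B rose in TE6 siBRDT from 97.6 and 115 to 187 and 188 (0.81, SE 0.17, adjusted p = 0.0022). Its log2 fold change was -0.14 in KYSE180 siTP63, 0.29 in TE6 siTP63 and -0.01 in KYSE150 siTP63. In KYSE180 siBRDT all 4 genes lay below 0, and GABARAPL1 fell from 1141, 1076 and 1019 to 766, 768 and 730 (-0.51, adjusted p = 1.47e-05). That call lay near the fold limit and was lost after rescaling, with the length and GC trend removed, with edgeR, and without siCont replicate 1 or siBRDT replicate 3.

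**Figure D3:**
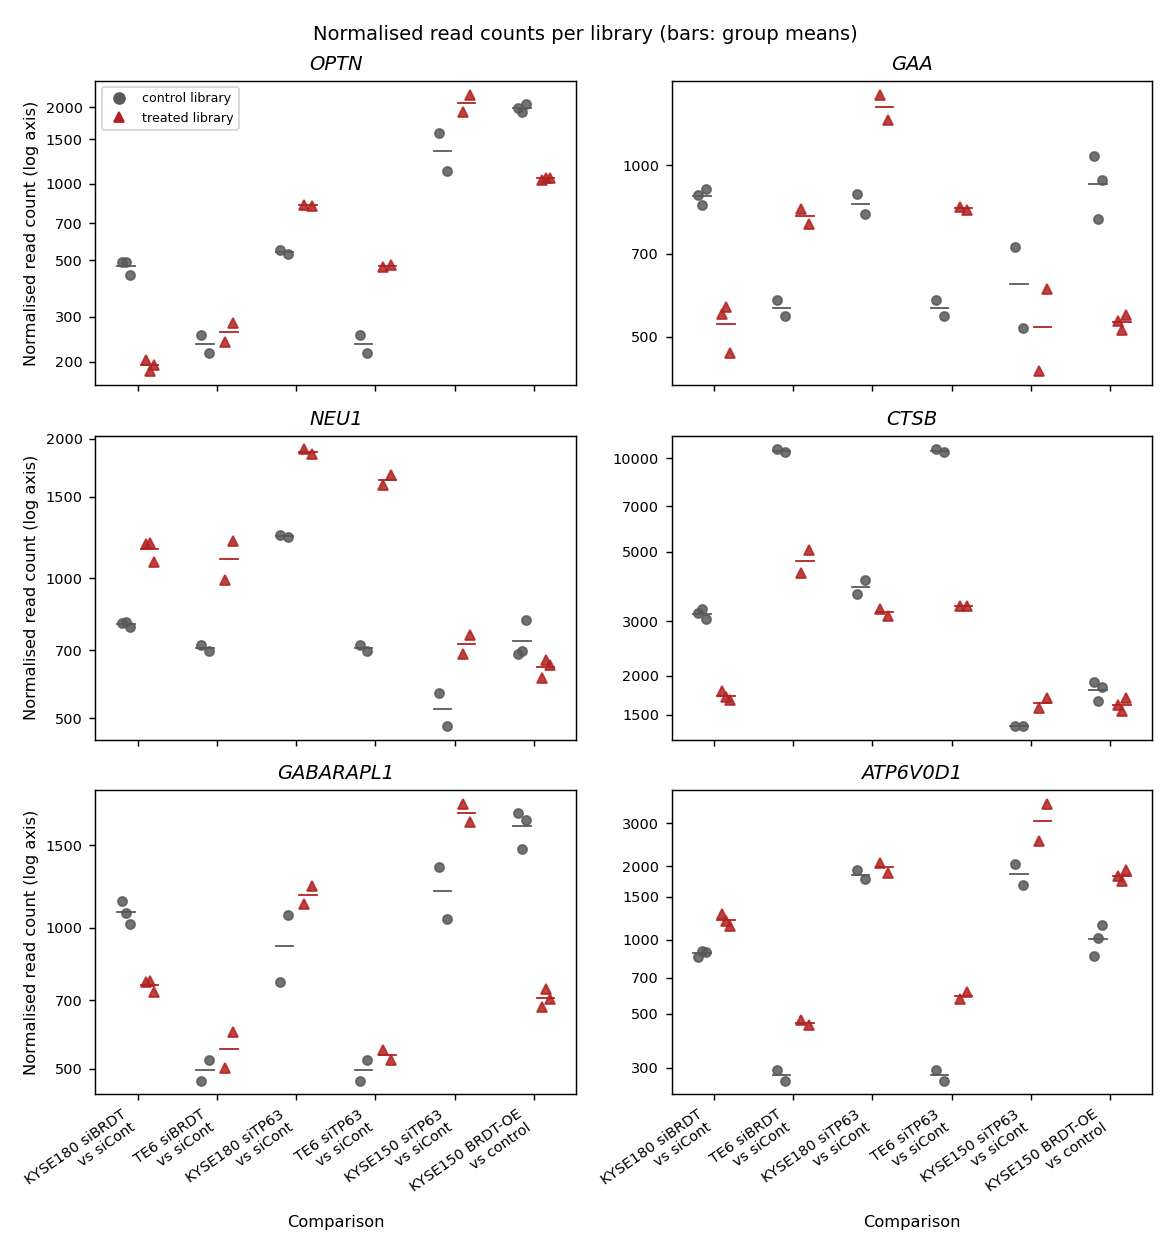
Normalised read count per library (y axis, log scale, separate range in each panel) of OPTN, GAA, NEU1, CTSB, GABARAPL1 and ATP6V0D1 in the 6 comparisons (x axis), with control libraries as grey circles, treated libraries as red triangles and group means as bars; the TE6 siCont libraries appear in both TE6 comparisons. OPTN lies lower in the treated libraries in KYSE180 siBRDT (203, 183 and 193) and BRDT-OE (1035, 1059 and 1059) and higher in KYSE180 siTP63 (828 and 821) and TE6 siTP63 (469 and 481).

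Of the cargo receptors, OPTN, which links ubiquitinated cargo to ATG8 proteins, moved most and in both directions. It fell in KYSE180 siBRDT from 495, 495 and 439 to 203, 183 and 193 (-1.30, SE 0.09, adjusted p = 1.86e-08) and in BRDT-OE from 1982, 1916 and 2069 to 1035, 1059 and 1059 (-0.92, SE 0.07, adjusted p = 5.82e-06). It rose in KYSE180 siTP63 from 549 and 529 to 828 and 821 (0.61, adjusted p = 6.63e-04) and in TE6 siTP63 from 255 and 215 to 469 and 481 (1.02, adjusted p = 1.01e-04). In TE6 siBRDT its values of 238 and 284 overlapped those of siCont. NBR1, a second ubiquitin-binding receptor, fell in BRDT-OE from 2607, 2401 and 2238 to 1272, 1326 and 1334 (-0.88, SE 0.07, adjusted p = 1.33e-05). SQSTM1, which encodes the receptor p62, reached the fold limit in no comparison. Its log2 fold change was largest in size in BRDT-OE (-0.31, 95% interval -0.47 to -0.15, adjusted p = 0.00539), from 15248, 15686 and 16294 to 12106, 13449 and 12641. In the other comparisons it lay between -0.18 and 0.12.

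The transcription factors of the program were themselves at very different levels. Per kilobase of the longest transcript, the mean normalised read count in the TE6 siCont libraries was 133 for TFE3 and 6.3 for TFEB, and TFEB ranked 38 to 40 among the 41 genes in every control group. TFEB fell in BRDT-OE from 84.9, 79.2 and 83.3 to 43.0, 45.7 and 40.8 (-0.92, SE 0.15, adjusted p = 6.35e-04). It fell in TE6 siTP63 from 18.5 and 26.7 to 7.30 and 8.88 (-1.36, SE 0.38, adjusted p = 0.00941). With DESeq2 on the recovered reads that change had an adjusted p of 0.061, and it also did not pass without TE6 siCont replicate 2 or without TE6 siTP63 replicate 1. In KYSE180 siBRDT TFEB overlapped between groups (0.37, adjusted p = 0.0582), and it did not pass in TE6 siBRDT (0.24), KYSE180 siTP63 (-0.50) or KYSE150 siTP63 (0.24). TFE3 rose in KYSE180 siBRDT from 546, 541 and 564 to 815, 823 and 840 (0.58, SE 0.07, adjusted p = 3.41e-06) and in KYSE180 siTP63 from 423 and 392 to 558 and 617 (0.52, adjusted p = 0.00391), a call that was lost when siCont replicate 2 or siTP63 replicate 2 was left out. Its log2 fold change was between -0.01 and 0.04 in the TE6 and KYSE150 comparisons.

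Among the proteins of the lysosomal membrane and its cholesterol export, LAMP2, which takes part in vesicle fusion and chaperone-mediated autophagy, showed the largest rise of any member in KYSE180 siTP63. Its counts went from 521 and 654 to 1239 and 1384 (1.16, SE 0.15, adjusted p = 3.15e-07). In TE6 siBRDT it fell from 854 and 1016 to 771 and 518 (-0.56, adjusted p = 0.0142), a call lost without siBRDT replicate 2, the lower library, without siCont replicate 2 and with the length and GC trend removed. NPC1, the membrane cholesterol exporter, fell in TE6 siBRDT from 504 and 495 to 216 and 355 (-0.85, adjusted p = 0.00277), and without the library that stood apart the change was -0.49, short of the fold limit. NPC2, its partner in the lumen, fell in KYSE180 siBRDT from 1637, 1663 and 1580 to 1219, 1145 and 1052 (-0.52, adjusted p = 1.35e-05), a call lost after rescaling and without siBRDT replicate 3. It fell in BRDT-OE from 2409, 2029 and 2735 to 1554, 1516 and 1475 (-0.65, adjusted p = 4.29e-04) and rose in TE6 siTP63 from 2607 and 2674 to 5283 and 4889 (0.94, SE 0.09, adjusted p = 5.2e-06). MCOLN1, the lysosomal calcium channel, rose in BRDT-OE from 131, 156 and 139 to 227, 245 and 262 (0.78, SE 0.11, adjusted p = 3.04e-04) and fell in KYSE180 siTP63 from 396 and 390 to 275 and 246 (-0.59, adjusted p = 0.00216), a call lost after rescaling, with the length and GC trend removed and without siTP63 replicate 2. LAMP1, the most abundant lysosomal membrane protein, passed in none, with log2 fold changes between -0.22 and 0.31.

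CTSB, a cysteine protease, showed the largest fall of any member in both TE6 comparisons. Its counts were 10668 and 10494 in TE6 siCont, 4275 and 5054 in siBRDT (-1.19, SE 0.10, adjusted p = 3.83e-06) and 3342 and 3348 in siTP63 (-1.66, SE 0.10, adjusted p = 1.2e-07). In KYSE180 siBRDT it fell from 3174, 3275 and 3040 to 1789, 1715 and 1671 (-0.87, SE 0.06, adjusted p = 2.03e-08). In KYSE180 siTP63 the values of 3282 and 3114 lay below the 3654 and 4075 of siCont without passing (-0.27, adjusted p = 0.106), and in KYSE150 siTP63 they lay above (0.25, adjusted p = 0.531). The aspartic protease CTSD and the carboxypeptidase CTSA passed in none, with CTSD between -0.12 and 0.46 and CTSA between -0.12 and 0.44. CTSL, a second cysteine protease, was at 0 in all 4 libraries of KYSE150 siCont and siTP63 and between 0.90 and 2.81 in the BRDT-OE table, against 852 and 872 in TE6 siCont.

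NEU1, the lysosomal sialidase, was the member that rose in most comparisons. It rose in KYSE180 siBRDT from 800, 804 and 786 to 1186, 1192 and 1086 (0.53, SE 0.07, adjusted p = 7.31e-06), and in TE6 siBRDT from 718 and 698 to 992 and 1207 (0.63, adjusted p = 8.34e-04), where it did not pass without siBRDT replicate 2. It rose in KYSE180 siTP63 from 1241 and 1228 to 1897 and 1852 (0.60, adjusted p = 5.66e-04), a call lost with the length and GC trend removed, and in TE6 siTP63 to 1588 and 1674 (1.20, SE 0.12, adjusted p = 4.43e-06). In KYSE150 siTP63 both treated libraries lay above both controls (0.46, adjusted p = 0.302), and in BRDT-OE its change was -0.18. GAA, the acid glucosidase that breaks down glycogen, changed direction. It fell in KYSE180 siBRDT from 886, 853 and 908 to 548, 564 and 468 (-0.75, SE 0.08, adjusted p = 1.73e-06) and in BRDT-OE from 1039, 804 and 941 to 534, 514 and 547 (-0.79, SE 0.10, adjusted p = 1.11e-04).

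GAA rose in TE6 siBRDT from 581 and 544 to 839 and 790 (0.53, adjusted p = 0.00167), a call lost without the library that stood apart, without siCont replicate 2 and with the length and GC trend removed. It also rose in KYSE180 siTP63 (0.56, adjusted p = 0.00134), a call lost without siTP63 replicate 1, and in TE6 siTP63 (0.58, adjusted p = 7.75e-04), a call lost with the length and GC trend removed. GLA, the alpha-galactosidase, fell in KYSE180 siTP63 from 2171 and 2165 to 828 and 842 (-1.38, SE 0.14, adjusted p = 6.89e-09) and in TE6 siTP63 from 868 and 921 to 559 and 576 (-0.66, adjusted p = 2.64e-04). In KYSE150 siTP63 it was at 588 and 740 against 1010 and 974 (-0.59, unadjusted p = 0.0304 by limma across all genes). Exons of GLA overlap RPL36A on the other strand, so its reads could be shared. GLB1, the beta-galactosidase, rose in KYSE180 siTP63 from 691 and 921 to 1265 and 1328 (0.70, adjusted p = 3.01e-04), a call lost without siCont replicate 1, and HEXA, a hexosaminidase subunit, passed in none.

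In the V-ATPase, ATP6V0D1, a subunit of the membrane sector, rose in 3 comparisons. It rose in BRDT-OE from 861, 1016 and 1155 to 1823, 1743 and 1932 (0.87, SE 0.10, adjusted p = 8.54e-05), in TE6 siBRDT from 295 and 266 to 469 and 450 (0.71, SE 0.12, adjusted p = 5.5e-04) and in TE6 siTP63 to 572 and 611 (1.07, adjusted p = 1.88e-05). Of the cytosolic sector, ATP6V1H rose in TE6 siTP63 from 377 and 371 to 673 and 734 (0.91, SE 0.13, adjusted p = 8.18e-05). The catalytic subunit ATP6V1A rose in KYSE180 siTP63 from 456 and 379 to 689 and 805 (0.84, SE 0.15, adjusted p = 4.31e-05). In TE6 siBRDT ATP6V1A was at 933 and 504 against 879 and 1112 (-0.53, adjusted p = 0.0633), and without the library that stood apart, the one at 933, its change was -0.97 and passed. Without siBRDT replicate 2, the one at 504, it was -0.083 and did not. Its change was -0.02 in KYSE180 siBRDT, -0.28 in TE6 siTP63, 0.27 in KYSE150 siTP63 and -0.05 in BRDT-OE.

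In KYSE150 siTP63 the replicates were far apart and no gene passed limma's adjusted threshold. At an unadjusted p under 0.05, 5 members lay higher and 1 lower, beside 8.67% and 9.12% of all genes. The members above were GLB1, ATP6V0D1, GABARAPL1, OPTN and ATG4B, with log2 fold changes from 0.57 to 0.71, and the member below was GLA. Of all genes, edgeR called 0, and DESeq2 202 up and 259 down, with no member among them. The difference in TP63 itself (-2.34) did not pass there, although its values of 695 and 729 against 170 and 115 did not overlap.

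**Figure D4:**
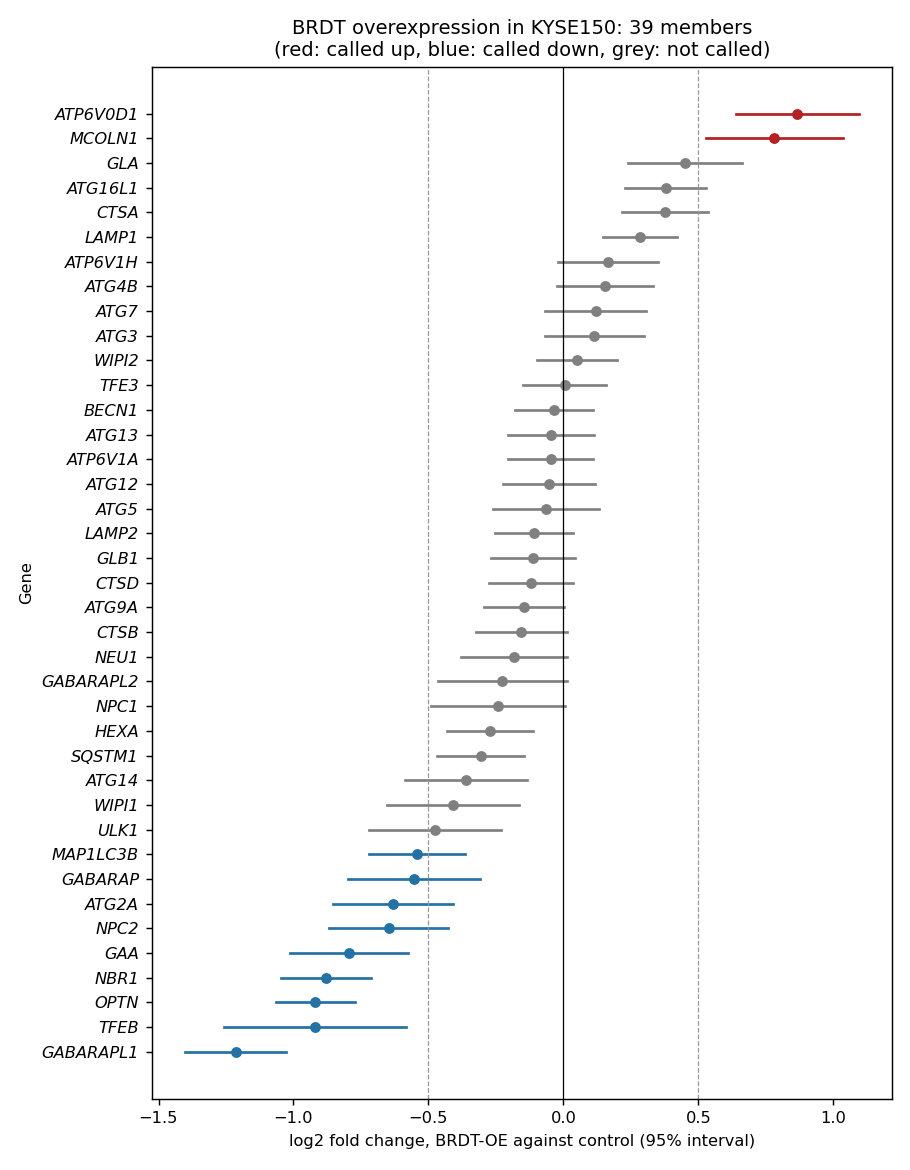
Log2 fold change in BRDT-OE against control (x axis, points) with its 95% interval (lines) for the 39 members (y axis, ordered by value), red where called up, blue where called down and grey where not called, with dashed lines at the limits of -0.5 and 0.5. GABARAPL1 (-1.21), TFEB (-0.92), OPTN (-0.92) and NBR1 (-0.88) lie lowest, and ATP6V0D1 (0.87) and MCOLN1 (0.78) highest.

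In BRDT-OE 3 of 4 genes of the ATG8 family and 2 of 3 receptors fell and 0 of 6 genes of the conjugation machinery were called, beside 10.5% of all genes that rose and 16.0% that fell. With the length and GC trend removed GABARAPL1 was the only ATG8 gene that fell. Of the 9 members whose promoters hold CACGTG, 2 rose (ATP6V0D1 and MCOLN1) and 1 fell (GAA) in BRDT-OE, and of the 25 members with a promoter entry and no CACGTG, 0 rose and 8 fell, which is a description of these promoters and was given no test. In TE6 siTP63 the counts were 3 up and 0 down of 9, and 8 up and 2 down of 25, beside 18.3% and 20.6% of all genes. In KYSE180 siTP63 they were 2 and 2 of 9, and 4 and 3 of 25, beside 23.6% and 25.7%. In KYSE180 siBRDT they were 1 and 1 of 9, and 2 and 4 of 25, beside 14.5% and 15.8%. In TE6 siBRDT they were 3 and 1 of 9, and 3 and 3 of 25, beside 15.6% and 18.1%. In KYSE150 siTP63 no member was called. Beside these changes, 7 of the 9 interferon-response genes tested fell in BRDT-OE, where their summed level was 5966 to 7352 in control and 3171 to 3312 in BRDT-OE libraries. In TE6 siTP63 7 of 10 rose (summed level 3343 to 3692 in siCont and 15021 to 15563 in siTP63), in TE6 siBRDT and KYSE180 siTP63 10 of 10 rose, and in KYSE180 siBRDT 2 of 10 rose. Their part in the members' changes was not tested.

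The same knock-down was compared between the lines by the difference of the log2 fold changes, TE6 minus KYSE180, with limma and an adjusted p under 0.05. For siBRDT 9 members were higher and 6 lower in TE6, beside 19.4% and 22.5% of all genes. The largest differences were OPTN (1.45, 95% interval 1.10 to 1.79), GAA (1.28, 1.00 to 1.56) and MAP1LC3B (1.00, 0.66 to 1.34) upward, and ATG14 (-0.79), NPC1 (-0.74) and TFE3 (-0.59) downward. Without the TE6 library that stood apart 12 members were higher and 6 lower, ATG16L1 and CTSB no longer differed, and LAMP1, LAMP2, MCOLN1, CTSA and ATP6V1A did. The differences in NPC1 and TFE3 were then both -0.38, and without TE6 siBRDT replicate 2 they were -1.09 and -0.80. GAA had fallen in KYSE180 and risen in TE6. ATG4B and NEU1 rose and WIPI1 and CTSB fell in both lines, and of these only CTSB differed in size, by -0.31 (adjusted p = 0.0362), a difference lost when any of 7 single libraries was left out. All 4 ATG8 genes were among those higher in TE6.

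**Figure D5:**
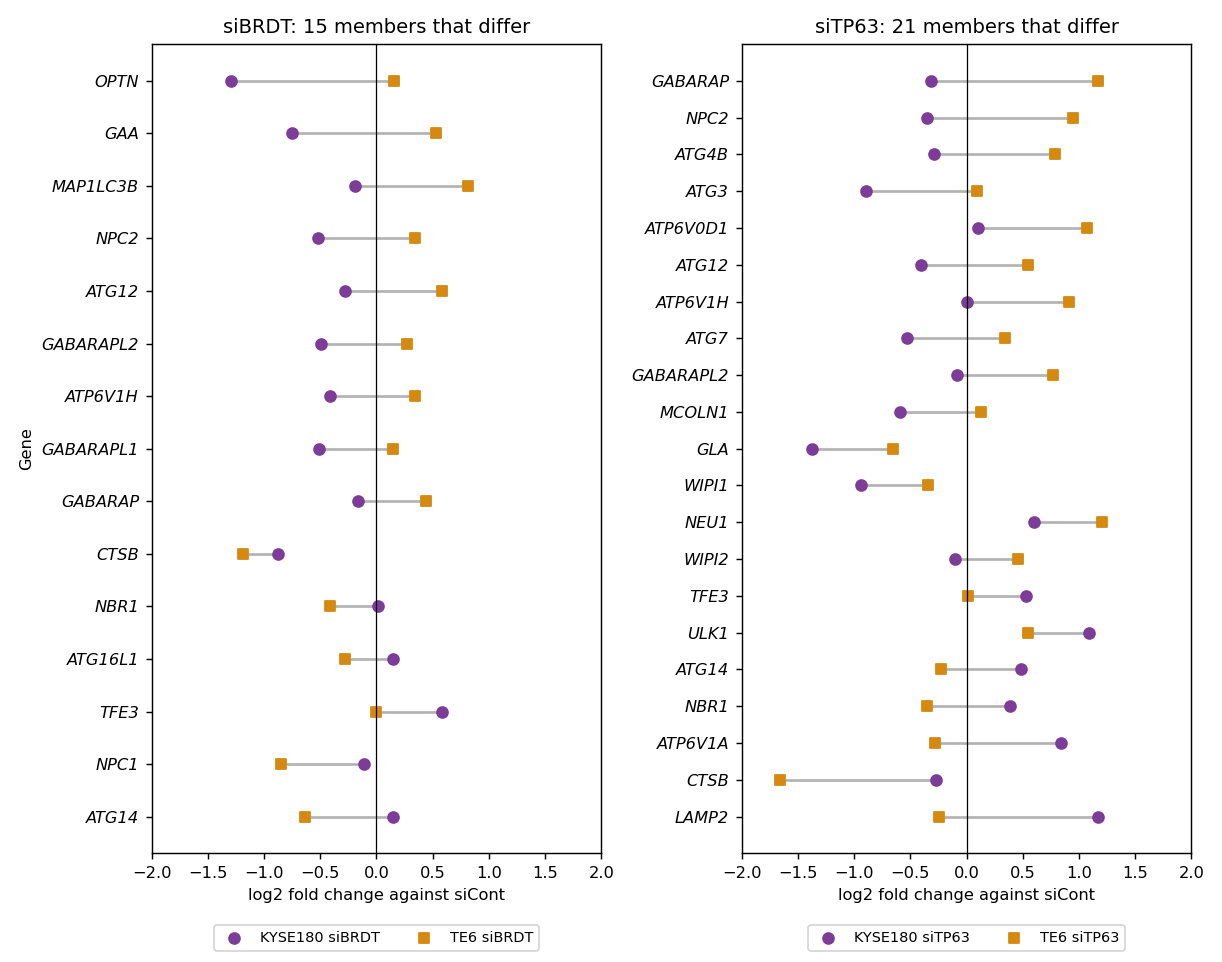
Log2 fold change against siCont (x axis) in KYSE180 (purple circles) and TE6 (orange squares), joined by grey lines, for the members (y axis) whose change differed between the lines after siBRDT (left, 15 members) and siTP63 (right, 21 members). OPTN and GAA show the longest lines upward in TE6 after siBRDT, and LAMP2 and CTSB the longest downward after siTP63.

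For siTP63 14 members were higher and 7 lower in TE6, beside 28.8% and 26.2% of all genes. TP63 itself fell further in TE6 than in KYSE180, and the part of this in the differences was not tested. The largest were GABARAP (1.49, 95% interval 1.12 to 1.86), NPC2 (1.30, 0.91 to 1.68) and ATG4B (1.07, 0.70 to 1.43) upward, and LAMP2 (-1.41, -1.90 to -0.93), CTSB (-1.39, -1.73 to -1.05) and ATP6V1A (-1.12, -1.72 to -0.52) downward. ULK1, OPTN, GAA and NEU1 rose and GLA fell in both lines. Of these 5, ULK1 (-0.54) and GLA (0.72) had the smaller change in TE6 and NEU1 (0.60) the larger. The difference in ULK1 was lost when any of 4 single libraries was left out. With the length and GC trend removed the differences were smaller, at -0.57 for LAMP2, 0.76 for GABARAP and 0.78 for NPC2, which still passed, and -0.61 for ATP6V1A (adjusted p = 0.0717), which did not.

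The knock-downs were also compared within a line. In TE6, siTP63 against siBRDT, 18 members were higher and 5 lower, beside 19.3% and 19.9% of all genes. Higher with siTP63 were OPTN (0.86), ATG13 (0.84) and BECN1 (0.81), and lower were TFEB (-1.60), GLA (-0.97) and MAP1LC3B (-0.52). The difference in BECN1 was 0.47 without the library that stood apart and 1.15 without siBRDT replicate 2. With only the second siTP63 library 12 members differed, and with only the first 10 did. The difference in MAP1LC3B did not pass when either siCont or either siTP63 library was left out. In KYSE180, where the knock-downs had separate controls, 17 members were higher with siTP63 and 8 lower, beside 31.3% and 33.7%. OPTN (1.91), LAMP2 (1.33) and GAA (1.31) led upward, and GLA (-1.85), ATG3 (-1.21) and TFEB (-0.87) downward, the last lost without siCont replicate 1 of the siTP63 experiment or siTP63 replicate 2.

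A wider list of 119 further genes of the pathway gave 8 up and 30 down of 113 tested in KYSE180 siBRDT, where 14.5% of all genes rose and 15.8% fell, and 15 and 22 of 112 in TE6 siBRDT, beside 15.6% and 18.1%. It gave 39 and 12 of 115 in KYSE180 siTP63, beside 23.6% and 25.7%, and 39 and 17 of 112 in TE6 siTP63, beside 18.3% and 20.6%. In KYSE150 siTP63 the counts were 0 and 0 of 104, and in BRDT-OE 8 and 9 of 105, beside 10.5% and 16.0%. The median log2 fold change of the list was -0.14 in KYSE180 siBRDT, -0.085 in TE6 siBRDT, 0.25 in KYSE180 siTP63, 0.27 in TE6 siTP63, 0.17 in KYSE150 siTP63 and -0.0094 in BRDT-OE. Among its 34 further lysosomal hydrolases and activators, 1 rose and 13 fell in KYSE180 siBRDT, 4 rose and 5 fell in TE6 siBRDT, 16 rose and 1 fell in KYSE180 siTP63, 15 rose and 4 fell in TE6 siTP63, and 2 rose and 4 fell of the 29 tested in BRDT-OE, beside the shares of all genes given above. SMPD1, the acid sphingomyelinase, fell in KYSE180 siBRDT from 301, 274 and 295 to 104, 94.9 and 74.9 (-1.67) and in TE6 siBRDT from 87.9 and 87.9 to 46.4 and 21.5 (-1.44), and rose in KYSE180 siTP63 from 431 and 320 to 1444 and 1261 (1.86) and in TE6 siTP63 from 87.9 and 87.9 to 285 and 290 (1.70).

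In KYSE180 siBRDT the other large changes of the wider list were falls of RAB7A, the GTPase of late endosomes (-1.64), and RHEB, the activator of mTORC1 (-1.32), and rises of CTNS, the cystine exporter (1.34), and ATP6V0E2 (0.79). RAB7A also fell in TE6 siBRDT (-1.61), with the starter subunit RB1CC1 (-1.58) and the mannose-6-phosphate receptor M6PR (-1.51), while LAMTOR2 (0.92), MLST8 (0.81) and CLN3 (0.70) rose. These calls were not followed without single libraries. M6PR was at 272 in the TE6 siBRDT library that stood apart and at 465 in siBRDT replicate 2. In KYSE180 siTP63 LAMTOR4 (-2.34) and LAMTOR2 (-1.14), subunits of the Ragulator complex that anchors mTORC1, and ARSB (-1.07) fell, and GALC (1.73) and LAMP3 (1.59) rose beside SMPD1.

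In TE6 siTP63 LIPA, the acid lipase, fell from 1054 and 1196 to 246 and 221 (-2.26), with ARSB (-1.37) and VMP1 (-1.33). IDUA (1.26) rose there, as did ASAH1, the acid ceramidase, from 629 and 742 to 1611 and 1628. Exons of LIPA overlap IFIT2 and IFIT3, genes of the interferon-response list, on the other strand, so its reads could be shared. Several other genes named from the wider list, among them VMP1, IDUA, M6PR and CLN3, overlap other genes too. In BRDT-OE CTNS (1.02), RPTOR (0.62) and AKT1S1 (0.59) rose and ATG16L2 (-0.97), CTSH (-0.82) and IDUA (-0.64) fell. CD68, a lysosomal glycoprotein listed here among the leukocyte markers, fell in KYSE180 siBRDT (-1.26), TE6 siBRDT (-0.80), KYSE180 siTP63 (-1.73) and TE6 siTP63 (-2.26) while PTPRC and CD3E stayed under 10.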

How the data were processed

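Total RNA was isolated with QIAzol and made into libraries with the TruSeq RNA V2 kit, 48 h after transfection for the knock-downs per the labels. The authors mapped reads to hg38 and counted them per gene. The submitters' processing notes name STAR 2.6.0, HTSeq 0.11.2 and DESeq2 1.24.0; strand and annotation are not given in the sources used here. The deposited values are a normalised signal, read counts scaled by one size factor for each library and set separately in each of 5 tables, so tests were made within a table. In all libraries 100% of values were whole multiples of 1 read (tolerance 0.01 read), which gave the reads back.

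Values were tested as log2(value + 1) with limma 3.58.1 (lmFit, eBayes with trend, R 4.3.3) on genes with a table mean of 10 or more, with Benjamini-Hochberg adjustment over all genes tested. The 3 TE6 groups shared 1 fit. The fold scale understates changes of low genes. Alternatives were a pseudocount of 0.1, no filter, upper-quartile rescaling, a replicate block, edgeR 4.0.16 and DESeq2 1.42.0 on recovered reads, no fold-change limit, only the groups compared, and leaving out each library. Removal of a length and GC trend and a crossed block were chosen after seeing the data. Scripts were tested on simulated data.

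Members and lists were chosen with earlier results of these data known. Members named were all 41 by role, the 4 largest called rises and falls per comparison, members called in both lines or in opposite directions, 7 genes in every comparison (TFEB, TFE3, SQSTM1, MAP1LC3B, LAMP1, CTSD, ATP6V1A) and the 3 largest differences per direction. Of the wider list, up to 3 called rises and falls with a table mean of 100 or more were named. Gene models and overlaps came from GENCODE, promoters from RefSeq. A 0 allows up to 3 reads, by counting error only. Same-numbered replicates correlated between -0.70 and 0.18 in their deviations and no table had every pair over 0.1, so the numbers were not taken as pairs. Some genes of the wider and marker lists are not reported here.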

Additional observations from a re-analysis of the deposited data

Results flagged for a closer look

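The results listed here were flagged because the same knock-down gave different changes in TE6 and KYSE180 by a test of the difference itself, in limma. For siBRDT 15 of 39 members differed. The TE6 minus KYSE180 difference was 1.45 for OPTN, 1.28 for GAA, 1.00 for MAP1LC3B, -0.79 for ATG14, -0.74 for NPC1 and -0.59 for TFE3. Without the TE6 siBRDT replicate 1 library those of NPC1 and TFE3 were both -0.38 and still passed. For siTP63 21 of 39 members differed, with 1.49 for GABARAP, 1.30 for NPC2, 1.07 for ATG4B, -1.41 for LAMP2, -1.39 for CTSB and -1.12 for ATP6V1A. With the length and GC trend removed those of GABARAP, NPC2 and LAMP2 were 0.76, 0.78 and -0.57 and passed, and that of ATP6V1A was -0.61 and did not. Among all genes tested 41.9% differed for siBRDT and 55.0% for siTP63, beside 38.5% and 53.8% of the members. The members' shares were no higher than those of all genes. The lines were profiled in separate experiments, so line and experiment cannot be told apart. TP63 itself also fell further in TE6 siTP63 than in KYSE180 siTP63. No group of these genes was tested for a single library far from the others, since no group had more than 3 libraries.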

How the results depend on the processing

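The number of libraries per group, 2 or 3, limits every test, and low genes such as TFEB in TE6 rest on few reads. Over the counts and medians of members, 150 values under other settings stayed within the limits set for them and 17 moved beyond. Without a library 125 stayed and 9 moved. Without the fold limit the counts were 7 up and 16 down in KYSE180 siBRDT, 13 up in TE6 siBRDT, 13 up in KYSE180 siTP63, and 6 up and 14 down in BRDT-OE. Rescaling gave 13 up and 3 down with a median of 0.30 in KYSE180 siTP63, a median of 0.30 in TE6 siTP63 and of -0.22 in BRDT-OE. Removing the length and GC trend gave medians of -0.062 in KYSE180 siBRDT, 0.024 in KYSE180 siTP63 and -0.071 in BRDT-OE, and edgeR gave a median of 0.15 in KYSE180 siTP63. The cause was not tested.

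In TE6 siBRDT the trend removal left 1451 genes up and 1539 down of all genes, in place of 2074 and 2419, with the member calls ATG14, BECN1, ATG4B, LAMP2 and GAA lost and ATG3, GLA and GLB1 gained. In KYSE150 siTP63, of all genes, 0 passed with limma, 27 up and 18 down without the filter, 316 and 479 with the trend removed, and 202 and 259 with DESeq2.

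Leaving out single libraries gave 3 to 6 members up and a median of 0.01 to 0.17 in TE6 siBRDT, a median of 0.079 to 0.16 in KYSE180 siTP63 and of 0.21 to 0.26 in TE6 siTP63, and 10 to 25 members that differed in TE6 siTP63 against siBRDT.

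Same-numbered replicates did not deviate together. With the replicate block TFEB passed as a sixth fall in KYSE180 siTP63 (-0.50), and the contrasts gave 15 higher and 8 lower for siTP63 between lines, 16 and 4 for TE6 siTP63 against siBRDT, and 18 and 10 for the KYSE180 knock-downs. In KYSE150 siTP63 the block left 0 members called and 89 up and 48 down of all genes. With the numbers crossed, a pairing chosen after seeing the data, 7 members were up and 1 down, and 1626 up and 1774 down of all genes. The block changed no other count of members.

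Genes whose change lay near 0 turned sign. In KYSE180 siBRDT CTSD was 0.020 after rescaling, 0.015 with edgeR and 0.0055 with DESeq2, and ATP6V1A 0.0067 after rescaling, 0.084 with the trend removed and 0.0047 with edgeR. In TE6 siBRDT TFE3 was 0.030, 0.016 and 0.028 with rescaling, edgeR and DESeq2, and LAMP1 0.012, 0.13 and 0.00033 with rescaling, trend removal and DESeq2. After rescaling SQSTM1 was 0.014 and MAP1LC3B 0.055 in KYSE180 siTP63, and MAP1LC3B 0.049 in KYSE150 siTP63. TFE3 was -0.17 with the trend removed in TE6 siTP63, and in BRDT-OE -0.094, -0.017 and -0.00667 with rescaling, edgeR and DESeq2, where CTSD was 0.087 with the trend removed.

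With single libraries left out, CTSD ranged from -0.037 to 0.068 and ATP6V1A from -0.081 to 0.029 in KYSE180 siBRDT. In TE6 siBRDT the ranges were -0.02 to 0.49 for TFEB, -0.22 to 0.21 for TFE3, -0.17 to 0.041 for SQSTM1 and -0.12 to 0.074 for LAMP1. MAP1LC3B ranged from -0.41 to 0.13 in KYSE180 siTP63, and TFE3 from -0.021 to 0.038 in TE6 siTP63 and from -0.023 to 0.043 in BRDT-OE. In KYSE150 siTP63 they were -0.16 to 0.23 for TFE3, -0.26 to 0.034 for SQSTM1, -0.24 to 0.22 for MAP1LC3B and -0.060 to 0.61 for ATP6V1A. Of the other named values, 9 lost and 7 gained a call under other settings, and 20 lost and 2 gained one without a library.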
